A study of Mus musculus with 6 samples.

Results

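The T cell receptor variable genes are the germline segments that give each T cell clone its antigen-binding chain. They were taken as the genes whose symbol starts with Trav, Trbv, Trgv or Trdv, which gave 170 of the 32285 genes listed: 128 alpha (Trav), 35 beta (Trbv), 1 gamma (Trgv2) and 6 delta (Trdv) genes. Most gamma genes are listed under the Tcrg-V symbols and are outside this set. UMIs, counts of distinct captured RNA molecules, were measured in single cells of mice bearing EMT6 tumors, EMT6 being a cell line from a mammary carcinoma of the mouse. The genotypes were Cysltr1 KO, lacking a receptor for cysteinyl leukotrienes, and WT on the BALB/c strain. The sources used here do not give the background strain of the KO mice or the age of the animals. Spleen and tumor cells were enriched for CD45, and marrow cells for progenitors. Each tissue and genotype gave 1 library from a pool of 3 mice, so no difference between genotypes has a replicate check, and the 95% intervals given, exact for shares and ratios, cover counting error only.

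T cells were taken as cells with at least 1 UMI of Cd3e, Cd3g or Cd3d, which encode the signalling chains of the receptor complex. Tumor gave 296 such cells in the library labelled KO and 154 in the library labelled WT, whereas spleen gave 4279 and 3888. All 10 T cell markers, which include the Cd3 genes that defined the cells, were detected in each of these sets. Several of the others were in smaller shares of tumor cells. A UMI of Trac, Trbc1 or Trbc2 was in 41.9% and 29.9% of tumor T cells labelled KO and WT, against 79.6% and 58.3% in spleen. Lck was in 37.5% and 36.4% of tumor and 82.3% and 65.6% of splenic T cells, and Cd5 in 16.9% and 19.5% against 45.2% and 35.3%. CD8 cells had a UMI of Cd8a or Cd8b1 and none of Cd4, and CD4 cells had the reverse: 1333 and 1263 in the spleen library labelled KO, and 995 and 901 in the spleen library labelled WT. The libraries held 5852 to 9740 barcodes and 40377940 to 75873784 UMIs, and any 2 of them shared 46 to 128 barcodes. Cysltr1 itself went against its label in spleen, at 33.1 CPM (the UMIs of a gene scaled to the total UMIs of the cells summed) in cells labelled KO and 6.79 CPM in cells labelled WT, and in marrow, at 24.6 and 4.76 CPM, so the genotype is used below only as a label. In tumor it was at 7.53 CPM in the library labelled KO and 9.67 CPM in the library labelled WT.

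A T cell joins 1 variable gene to joining segments (and, for beta and delta, a diversity segment) by cutting out or inverting the DNA between them. A mature cell usually makes 1 functional beta chain. The beta locus lies on chromosome 6, with Trbv1 at its 5′ end and Trbv31 at its 3′ end in inverted orientation, and the alpha locus on chromosome 14, with delta variable genes inside it. CD8 cells see peptides on MHC class I and CD4 cells on MHC class II, and the variable gene takes part in both contacts.

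The sequences of the genes on which the results below turn are the germline 3′ ends that remain in the rearranged transcript. They are the last 90 bases of the transcripts annotated by GENCODE (M21) on GRCm38, a genome of the C57BL/6J strain, with the codon of the conserved cysteine, which opens the third hypervariable loop, in capitals. Trbv20 (chr6:41188273-41188977, plus strand) and Trbv31 (chr6:41557691-41558452, minus strand) were lower in CD8 than in CD4 cells, Trbv3 (chr6:41048290-41048828) and Trbv14 (chr6:41135145-41135616) were higher, Trav14d-3-dv8 (chr14:53078452-53079045) was lower, and Trdv4 (chr14:54074905-54075515) was higher in tumor than in splenic T cells, and these 4 lie on the plus strand.
Trbv20: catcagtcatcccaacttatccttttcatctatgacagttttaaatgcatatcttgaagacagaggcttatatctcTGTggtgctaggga
Trbv31: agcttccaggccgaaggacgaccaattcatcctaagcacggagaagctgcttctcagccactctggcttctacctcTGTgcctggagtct
Trbv3: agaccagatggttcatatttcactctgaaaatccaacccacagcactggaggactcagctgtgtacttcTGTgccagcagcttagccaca
Trbv14: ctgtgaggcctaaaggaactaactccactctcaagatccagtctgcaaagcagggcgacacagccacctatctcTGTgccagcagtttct
Trav14d-3-dv8: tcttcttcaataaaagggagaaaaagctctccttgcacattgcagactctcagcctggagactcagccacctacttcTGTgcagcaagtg
Trdv4: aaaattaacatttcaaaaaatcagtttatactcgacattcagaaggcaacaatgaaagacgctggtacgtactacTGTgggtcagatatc

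Copies of a variable gene limit what can be counted. Of the 170 genes, 116 had a UMI in T cells of spleen or tumor, 82 had at least 30, and 54 had none. Of 35 functional Trav genes in which every 50-base window also occurs in another variable gene, 23 had 0 UMIs and the highest had 8. Of 42 functional Trav genes with under 50% of windows shared, 3 had 0 UMIs and the median was 327.5. All 22 functional Trbv genes had under 50% of windows shared, each had UMIs, and their median was 1081. Trav11 (chr14:53519303-53519859), the variable gene of the invariant alpha chain of natural killer T cells, had 1 UMI, as had Trav11d (chr14:52824357-52824912), to which it is identical over 342 aligned bases, whereas Trav11n (chr14:53135122-53135678; 4 UMIs) differs at 8 of 343 bases. All 3 lie on the plus strand, as do the genes compared below. In the window shown, capitals mark bases that differ from Trav11.
Trav11: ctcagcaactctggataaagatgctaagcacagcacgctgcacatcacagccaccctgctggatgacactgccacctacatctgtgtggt
Trav11d: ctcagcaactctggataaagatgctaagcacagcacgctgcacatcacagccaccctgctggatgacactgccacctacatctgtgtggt
Trav11n: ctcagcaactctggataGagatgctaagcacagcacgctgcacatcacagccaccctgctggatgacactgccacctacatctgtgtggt

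Natural killer T cells could therefore not be followed by their alpha chain at 1 UMI, and UMIs of the Trav genes with d or n copies are uncertain between copies. The Trbv13 genes, which gave the most Trbv cells, can be told apart: Trbv13-2 (chr6:41121396-41121832) and Trbv13-3 (chr6:41130147-41130585) share 0.344% of their 50-base windows, and Trbv13-1 (chr6:41116007-41116468) shares none. Capitals mark bases that differ from Trbv13-2, at 15 positions of the window in Trbv13-1 and at 10 in Trbv13-3.
Trbv13-2: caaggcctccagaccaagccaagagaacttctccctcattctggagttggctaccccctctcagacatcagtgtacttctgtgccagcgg
Trbv13-1: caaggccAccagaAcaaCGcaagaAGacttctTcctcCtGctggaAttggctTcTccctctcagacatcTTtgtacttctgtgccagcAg
Trbv13-3: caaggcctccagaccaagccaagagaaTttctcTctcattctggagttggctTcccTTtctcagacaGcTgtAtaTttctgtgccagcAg
Among the 34 genes annotated as pseudogenes, 10 had UMIs, 557 in all, of which Trbv24 had 363. The WT mice were of another strain than the reference, and the background strain of the KO mice is not given. Whether Trbv24 is intact in these mice was not tested.

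Trbv genes were found in a smaller share of tumor cells with a Cd3 UMI than of splenic ones. In tumor a Trbv UMI was found in 44.9% of T cells (39.2% to 50.8%) labelled KO and in 39.6% (31.8% to 47.8%) labelled WT. In spleen it was found in 85.3% (84.2% to 86.3%) labelled KO and in 71.8% (70.4% to 73.3%) labelled WT. Cells with no Cd3 UMI, which should lack these genes, held a Trbv UMI in 0.192% (labelled KO) and 0.0637% (labelled WT) of cases in tumor and in 2.48% and 2.17% in spleen. Median depths were 2568 and 3058 UMIs in tumor T cells and 4057 and 3274 in splenic T cells, against 2595 and 3510 UMIs in tumor cells and 3132 and 2592 in splenic cells without Cd3. With every cell thinned to 1000 UMIs, the Trbv shares were 29.6% and 25.3% in tumor and 61.9% and 51.7% in spleen, after 9, 4, 37 and 63 shallower cells were left out. All 4 shares were far above the share in cells without Cd3 of the same library.

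Trav genes, whose transcripts were found less often, followed the same order of libraries. A Trav UMI was found in 25.7% and 24.7% of tumor T cells labelled KO and WT and in 76.2% and 63.0% of splenic T cells, against 0.102% to 0.192% of tumor cells and 1.06% to 1.11% of splenic cells without Cd3. By lineage, 94.8% of CD8 and 92.2% of CD4 cells of the spleen library labelled KO held a Trbv UMI, as did 89.1% and 88.2% in the spleen library labelled WT. Cells with neither Cd4 nor Cd8 UMIs were lower, at 71.1% and 54.8%.

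Within spleen, the library with more neutrophil RNA had the lower shares. Tumor held less of this RNA by summed CPM, but by share of cells it lay between the spleen libraries. In tumor 15.5% of T cells labelled KO and 15.6% labelled WT held 5 or more UMIs of S100a8 and S100a9, the abundant neutrophil transcripts. In the spleen library labelled KO 5.33% of T cells, and in the library labelled WT 22.2% did. All 4 neutrophil markers were detected in each T cell set, with a summed level of 2783 and 3712 CPM in tumor and 29309 and 96495 CPM in spleen (labelled KO and WT). Splenic T cells with that neutrophil RNA held a Trbv UMI in 23.2% and 24.8% of cases, and those with less in 88.7% and 85.2%. The spleen libraries thus lay closer together without those cells, a split chosen after the data were seen. In tumor, 75.0% and 77.3% of T cells held a UMI of 5 macrophage markers (3619 and 2065 CPM) and 37.5% and 39.0% a UMI of 3 carcinoma markers (500 and 504 CPM), and the part of these in the lower tumor shares was not tested.

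**Figure D1:**
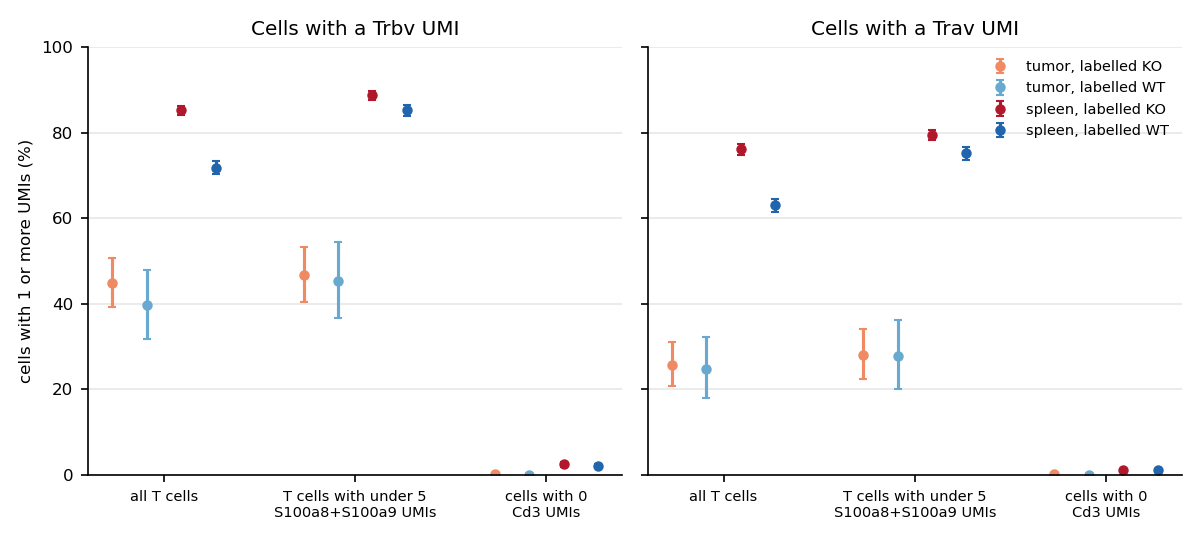
Share of cells with a Trbv UMI (left) and a Trav UMI (right) in each library, in percent, for all T cells, for T cells with little neutrophil RNA and for cells without Cd3; points are libraries and bars 95% exact intervals. Trbv shares were 44.9% and 39.6% in tumor T cells and 85.3% and 71.8% in splenic T cells labelled KO and WT, and at most 2.48% in cells without Cd3.

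Each cell with Trbv UMIs was assigned to the gene with the most of them, its leading gene, with ties left out, and usage is the share of assigned cells. In tumor 127 and 59 T cells could be assigned in the libraries labelled KO and WT, and in spleen 3514 and 2681. Trbv13-2 led in each library: 15.7% and 16.9% of assigned cells in the tumor libraries labelled KO and WT, and 14.5% in both spleen libraries. Trbv19 led 386 of 3514 cells (10.98%) labelled KO and 295 of 2681 labelled WT in spleen, and Trbv13-1 10.9% and 11.3%. Trbv13-3 led 8.37% and 9.03%, Trbv31 8.22% and 8.09% and Trbv1 7.34% and 8.24%. No interval of the ratio between the spleen libraries lay off 1 for any of these 6 genes.

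A middle group followed in spleen. Trbv20 led 6.57% of cells labelled KO and 6.83% labelled WT, Trbv5 6.52% and 4.40%, Trbv29 5.49% and 6.56%, Trbv2 5.29% and 4.48%, and Trbv4 4.84% and 4.63%. Trbv14 (2.96% and 2.69%), Trbv3 (1.964% and 1.977%), Trbv17 (1.71% and 2.13%) and Trbv16 (1.11% and 0.821%) were rarer. The 5 most used Trbv genes of each library together led 55.9% and 62.7% of tumor cells and 52.9% and 54.1% of splenic cells.

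The rank by cells was not the rank by UMIs, since cells of different genes carried different numbers of them. Over the 14 Trbv genes that led at least 50 cells in both spleen libraries, UMIs per assigned cell ran from 2.20 and 1.63 for Trbv5 to 14.9 and 11.7 for Trbv17 (labelled KO and WT). Trbv1 carried 9.99 and 7.16, Trbv13-1 8.99 and 6.96, Trbv4 3.51 and 3.09, and Trbv2 3.02 and 2.22. Trbv5 thus led 6.52% and 4.40% of cells with 2.37% and 1.67% of Trbv UMIs, and Trbv17 led 1.71% and 2.13% of cells with 3.797% and 4.792% of them. These are UMIs per cell, not divided by length, and which end of the transcript was read is not settled by the labels.

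**Figure D2:**
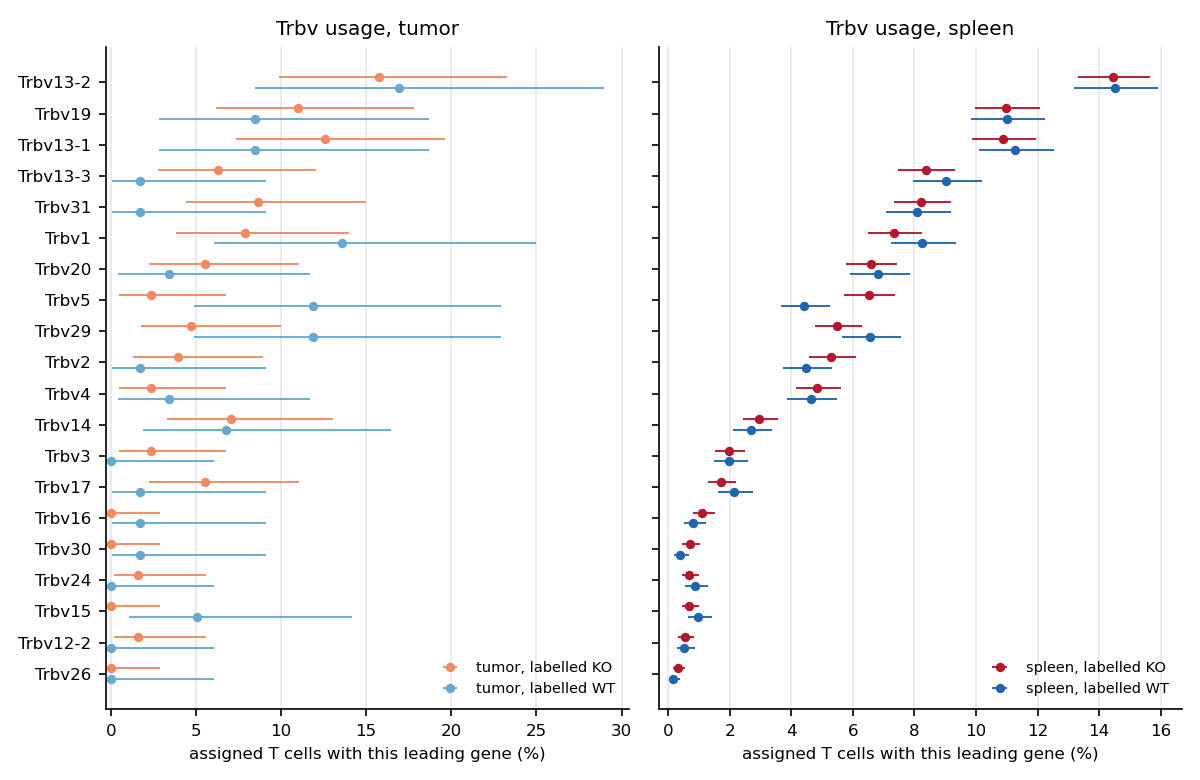
Trbv usage in tumor (left) and spleen (right), as the percent of assigned T cells led by each gene, with 95% exact intervals, for genes at 0.3% or more in a spleen library. Trbv13-2 is at 15.7% and 16.9% in tumor, where 127 and 59 cells give wide intervals, and at 14.5% in both spleen libraries.

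Alpha usage was spread over more genes. Trav3-3 led 5.97% and 7.31% of 2865 and 2133 assigned splenic cells labelled KO and WT, Trav16d-dv11 5.76% and 5.06%, Trav14d-3-dv8 5.10% and 4.88%, and Trav9-1 4.22% and 4.55%. Trav13-1, Trav8d-1, Trav5-4, Trav4-3, Trav14-1, Trav4-4-dv10, Trav12-3 and Trav21-dv12, the others of the 12 Trav genes with most UMIs, led 2.48% to 4.36% each. Evenness was measured by the inverse Simpson index, the number of equally used genes that would give the same chance that 2 cells share a gene. For Trbv it was 12.4 (10.5 to 15.3) and 11.7 (9.11 to 16.4) in tumor labelled KO and WT, and 12.2 (11.8 to 12.5) and 11.9 (11.5 to 12.3) in spleen. For Trav its tumor intervals were wide, 26.0 to 58.5 in the library labelled KO and 18.1 to 88.4 in that labelled WT, and it was 34.9 and 34.1 in spleen. The intervals of this index overlapped for Trbv over the 4 libraries. Pielou evenness, the Shannon diversity relative to its maximum for the number of genes seen, was computed for Trbv without an interval. It was 0.916 and 0.892 in tumor labelled KO and WT, over 17 and 16 genes, and 0.838 and 0.856 in spleen, over 24 and 22 genes.

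The evenness intervals of CD8 and CD4 cells overlapped in both spleen libraries. The Trbv index was 11.8 in CD8 and 11.5 in CD4 cells of the library labelled KO, and 11.2 and 11.5 in that labelled WT, and the Trav index was 29.6 and 33.1, and 31.1 and 31.9. In cells with both chains assigned (47 and 24 in tumor, 2558 and 1807 in spleen), 43 and 22 different Trav and Trbv pairs occurred in tumor and 681 and 606 in spleen. The most frequent splenic pairs were Trav14d-3-dv8 with Trbv13-2 and Trav3-3 with Trbv19, each in 22 cells (0.86%) labelled KO, and Trav3-3 with Trbv13-2 in 21 cells (1.16%) labelled WT. In the tumor library labelled KO the most frequent was Trav13-1 with Trbv13-1, in 4 cells. Without the junction sequence, cells of 1 clone cannot be told apart from cells of different clones with the same genes.

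Many T cells held a second Trbv gene. For Trbv13-2 and Trbv12-2, the 2 Trbv genes examined for this, the share of cells holding them went with the position of the leading gene. Of T cells with a Trbv UMI, 18.8% (25 of 133) and 9.84% (6 of 61) in tumor labelled KO and WT, and 33.2% (1210 of 3648) and 26.6% (743 of 2793) in spleen, held UMIs of 2 or more Trbv genes. At 2 or more UMIs of each gene the shares were 2.27% and 2.86% in tumor and 16.1% and 10.9% in spleen. Trbv13-2 was found in 20.8% and 14.9% of splenic T cells, more than the cells it led, and Trbv12-2 in 8.48% and 4.27%, although it led 0.541% and 0.522% of assigned cells. In cells without Cd3 they were found in 0.262% and 0.293%, and in 0.117% and 0.0677%. These genes were chosen for this comparison after their values were seen.

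The share of cells that held them differed with the place of the leading gene. In the library labelled KO, Trbv13-2 was also held by 19.0% (266 of 1397; 17.01% to 21.20%) of cells whose leading gene lies 3′ of it and by 3.33% (44 of 1320; 2.43% to 4.45%) of those whose leading gene lies 5′. In the library labelled WT it was held by 10.4% (116 of 1115; 8.67% to 12.3%) and 3.23% (31 of 960; 2.20% to 4.55%). Both libraries showed the same order, with intervals that did not overlap. For Trbv12-2 the shares were 14.5% (277 of 1905) 3′ and 2.08% 5′ in the library labelled KO, and 7.51% (113 of 1504) and 1.06% in the library labelled WT. Of the cells with a 3′ leading gene that held the second gene, 74.0% to 82.3% held 1 UMI of it.

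Among 3′ leading genes the share was highest for those close by. Trbv13-2 was held by 35.0% and 19.4% of cells led by Trbv13-3, whose start lies 8751 bases 3′, and by 36.5% and 16.7% of those led by Trbv14, 13749 bases 3′ (labelled KO and WT). It was held by 15.5% and 9.49% at Trbv19 (56979 bases), 11.7% and 6.56% at Trbv20 (66877 bases) and 4.66% and 2.84% at Trbv29 (149998 bases). Trbv13-1, on its 5′ side at -5389 bases, gave 4.45% and 3.64%, and the inverted Trbv31 gave 5.54% and 1.84%. Trbv12-2 was held by 27.4% and 13.4% of cells led by Trbv13-2, 2545 bases 3′ of it. Trav14-1, which had UMIs in 10.1% and 7.41% of splenic T cells and led 3.53% and 3.33% of assigned cells, was held beside a 3′ leading gene by 9.64% and beside a 5′ one by 7.49% of cells labelled KO, and by 6.62% and 7.22% of cells labelled WT. Its intervals overlapped in both libraries.

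**Figure D3:**
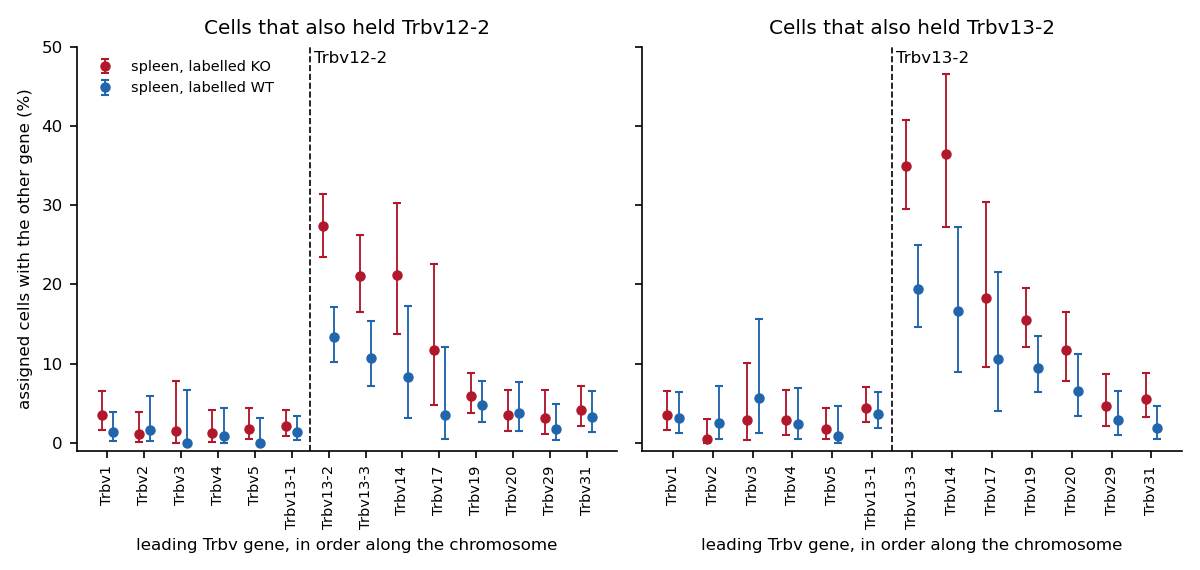
Percent of cells assigned to each leading Trbv gene that also held Trbv12-2 (left) or Trbv13-2 (right), in the spleen libraries labelled KO and WT, with 95% exact intervals and genes in chromosome order; the dashed line marks the place of the gene named above it. The share is low to the left of the line and high just right of it (35.0% and 19.4% for Trbv13-2 in Trbv13-3 cells), and lower again farther right.

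Some variable genes differed between CD8 and CD4 cells of spleen. Trbv20 and Trbv31 fell in CD8 relative to CD4 cells, Trbv3 and Trbv14 rose, and among alpha genes Trav14d-3-dv8 fell and Trav16d-dv11 rose. UMIs were summed per library and lineage and tested over all 10900 genes with edgeR's quasi-likelihood test, with the library as a block. Of the 170 variable genes 76 passed the filter on low counts, and 6 were higher and 15 lower in CD8 cells at a Benjamini-Hochberg adjusted p under 0.05. Over all genes tested, 6.78% were higher and 7.32% lower, so the count of variable genes higher in CD8 cells was near the background and that of genes lower was above it. Without the library block 1 of the 76 variable genes was higher and 5 were lower, and with DESeq2 0 and 4. Over all 10900 genes and both directions, each of these alternatives called 470, against 1537 in the main fit. At an unadjusted p under 0.05, 7 were higher by DESeq2 and 12 by edgeR. Of 21 Trbv genes 4 were higher and 6 lower (median log2 fold change 0.13), and of 52 Trav genes 2 and 9 (median -0.34), beside a median of 0.0013 over all genes. CD8 and CD4 sums were compared within each of 2 libraries, which are labelled with different genotypes. The error is the spread of that difference over these 2 pools. It has 1 residual degree of freedom per gene and is shared across genes.

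Trbv20 was at 32.7 and 26.8 CPM in CD8 cells of the libraries labelled KO and WT, against 121 and 108 CPM in CD4 cells. It led 3.11% and 3.33% of CD8 cells and 8.84% and 9.30% of CD4 cells. All CD8 values lay below all CD4 values, and the log2 fold change was -1.77 (SE 0.083, adjusted p = 5.90e-06, edgeR). Trbv31, the inverted gene at the 3′ end of the locus, was at 43.5 and 36.0 CPM in CD8 cells and 145 and 123 CPM in CD4 cells. It led 4.10% and 3.81% of CD8 cells and 10.6% and 10.1% of CD4 cells. Again the groups did not overlap, with a log2 fold change of -1.58 (SE 0.073, adjusted p = 5.61e-06, edgeR).

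Trbv3 was at 67.2 and 32.3 CPM in CD8 cells labelled KO and WT, against 15.5 and 20.8 CPM in CD4 cells, and led 3.44% and 3.21% of CD8 cells and 1.16% and 1.68% of CD4 cells. Its groups did not overlap, but the difference in CPM was larger in the library labelled KO (log2 2.11) than in that labelled WT (0.63), and the fitted log2 fold change was 1.70 (SE 0.27, adjusted p = 0.00533, edgeR). Trbv14 was at 67.2 and 69.9 CPM in CD8 and 37.2 and 17.1 CPM in CD4 cells, and led 5.16% and 4.28% against 1.70% and 1.55% of cells. Its log2 fold change was 1.44 (SE 0.22, adjusted p = 0.00404, edgeR), again with no overlap. Trbv17 (0.77) and Trbv29 (0.47) were the other Trbv genes higher in CD8 cells. The difference of Trbv17 in CPM was larger in the library labelled KO (log2 0.96) than in that labelled WT (0.17). Trbv29 was at 98.0 and 123 CPM in CD8 and 74.3 and 108 CPM in CD4 cells, so its groups overlapped while the differences within each library had 1 direction.

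The other Trbv genes lower in CD8 cells were Trbv5, Trbv2, Trbv1 and Trbv19, with log2 fold changes of -0.82, -0.57, -0.53 and -0.42. For Trbv19 the log2 difference was -0.60 and -0.57 within the spleen libraries labelled KO and WT. With tumor cells added it turned to 0.516 without the spleen library labelled KO and 0.540 without that labelled WT, neither called. The most used gene, Trbv13-2, was at 198 and 160 CPM in CD8 and 225 and 147 CPM in CD4 cells and led 15.9% and 17.1% against 14.5% and 13.6% of cells. Trbv13-2 went in opposite directions in the 2 libraries by CPM and did not pass the test.

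Among alpha genes, Trav14d-3-dv8 was at 24.0 and 22.8 CPM in CD8 cells labelled KO and WT and 61.7 and 66.3 CPM in CD4 cells. It led 2.76% and 3.30% of CD8 and 6.82% and 6.33% of CD4 cells, the groups did not overlap, and its log2 fold change was -1.27 (SE 0.105, adjusted p = 0.000158, edgeR). Its copy Trav14n-3, a rarer gene at 2.25 and 1.88 CPM in CD8 and 7.86 and 7.02 CPM in CD4 cells, had a log2 fold change of -1.67 (adjusted p = 0.0171, edgeR). The copies share windows, so their UMIs are uncertain between them: 38.8% of the 50-base windows of Trav14d-3-dv8 and 46.1% of those of Trav14n-3 occur in other variable genes. Capitals below mark bases that differ from Trav14d-3-dv8, at 4 positions of the window in Trav14n-3 (chr14:53370077-53370575) and at 3 in Trav14-3 (chr14:53763173-53763694).
Trav14d-3-dv8: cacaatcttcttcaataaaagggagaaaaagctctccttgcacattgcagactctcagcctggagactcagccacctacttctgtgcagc
Trav14n-3: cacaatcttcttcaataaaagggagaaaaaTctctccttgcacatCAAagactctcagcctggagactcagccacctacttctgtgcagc
Trav14-3: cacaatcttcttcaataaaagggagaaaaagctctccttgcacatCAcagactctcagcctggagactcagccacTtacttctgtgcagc

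The alpha genes that rose in CD8 cells were Trav2 (log2 fold change 1.21, adjusted p = 0.00787, edgeR) and Trav16d-dv11 (0.72, adjusted p = 0.0281, edgeR). Trav2 was at 18.24 and 20.01 CPM in CD8 and 10.4 and 7.58 CPM in CD4 cells. Trav16d-dv11 was at 56.1 and 38.6 CPM in CD8 and 30.4 and 36.2 CPM in CD4 cells, a log2 difference of 0.88 in the library labelled KO and 0.09 in that labelled WT, so its CPM difference rested mainly on the library labelled KO. It was the most used alpha gene of CD8 cells in both libraries, leading 9.21% and 8.40% of CD8 and 3.94% and 4.27% of CD4 cells. Trav14-2, Trav4-4-dv10, Trav4-2 and Trav5-4 fell by 1.48, 1.19, 1.17 and 1.17 on the log2 scale, and Trav9-4, Trav21-dv12 and Trav9-1 by 0.81, 0.71 and 0.65. All 21 genes that passed had the same direction in both libraries, which is no separate check, since they were called on these same libraries. Another 15 of the 55 that did not pass had an unadjusted p under 0.05.

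The constant genes of the same chains differed less. Of the 15 genes listed for the receptor complex and its assembly 10 were tested, and 1 passed: Trbc1, a beta constant gene, rose by 0.24 (adjusted p = 0.0457, edgeR). Trbc2, the other beta constant gene, was at 0.05 and Trac, the alpha constant gene, at -0.28 (adjusted p = 0.0664, edgeR). The calls depended on the tool: DESeq2 called 4 of the 21 and edgeR without the library block 6, all 21 with the same sign in both. Trbv20 and Trav14d-3-dv8 were called in all 11 alternatives in which they could be tested. With tumor cells added and either spleen library left out, 6 of the 21 could be tested and none was called.

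**Figure D4:**
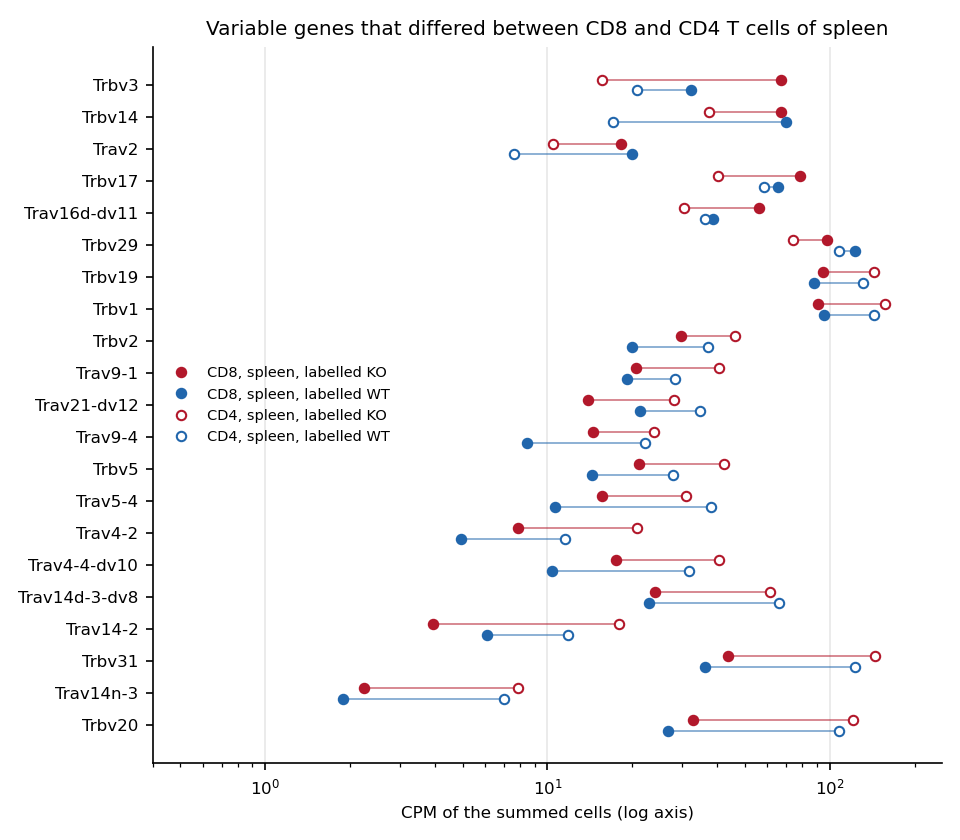
CPM on a log axis of the 21 variable genes that differed between CD8 (filled) and CD4 (open) T cells of spleen, with a line joining the lineages of each library, labelled KO and WT, and genes ordered by fitted log2 fold change. Trbv20 and Trbv31 stand at 26.8 to 43.5 CPM in CD8 cells and at 108 to 145 CPM in CD4 cells.

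In tumor T cells the variable genes were lower than in splenic T cells, and 1 delta gene, Trdv4, was higher. Summed over T cells, 79 of the 170 genes passed the filter on low counts, and 54 fell and 1 rose in tumor (edgeR's quasi-likelihood test with genotype label as a block, adjusted p under 0.05 over 12650 genes). Over all genes tested 18.7% fell and 19.4% rose. Of 4 Trdv genes 1 rose and 2 fell. Of 21 Trbv genes 14 fell and of 53 Trav genes 38, with medians of -2.42 and -3.88 on the log2 scale beside -0.13 over all genes. Since 1 Trbv and 15 Trav genes had 0 UMIs in both tumor libraries, where a fitted fold change depends on the prior count, medians were also taken from summed CPM with such genes at a floor of 3 UMIs over both tumor libraries, and were -2.13 and -2.33. In these bulk sums alone, fewer cells that express a gene and less RNA per cell cannot be told apart. Cell by cell, the most used gene, Trbv13-2, was in 11.8% and 7.79% of tumor T cells labelled KO and WT, at 2.2 and 2.3 UMIs per assigned cell. In spleen it was in 20.8% and 14.9%, at 5.9 and 3.9. Trbv5 labelled WT fell in neither, with 4.55% of tumor cells at 1.86 UMIs and 4.24% of splenic cells at 1.63.

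Trbv13-2 was at 33.8 and 25.5 CPM in tumor T cells labelled KO and WT, against 174 and 102 CPM in splenic T cells, a log2 fold change of -2.42 (SE 0.22, adjusted p = 0.000440, edgeR). Trbv13-1 was at 29.2 and 15.3 CPM in tumor and 170 and 125 CPM in spleen (-2.95), and Trbv1 at 20.6 and 25.5 against 126 and 94.8 CPM (-2.50). Trbv4 had 4 and 2 UMIs in tumor, 2.29 and 2.04 CPM, against 34.2 and 24.5 CPM in spleen (-3.97). Tumor and spleen values did not overlap for any of these 4 genes, and each passed in all 12 alternatives. Trav14-1 had 0 UMIs in 296 and 154 tumor T cells and 593 and 395 UMIs in splenic T cells, which makes it at least 23.4-fold lower at a floor of 3 UMIs over both tumor libraries. Trav7-5, Trav14-2, Trav8n-2 and Trav17 were likewise at 0 in tumor, at least 11.2-fold, at least 7.45-fold, at least 7.14-fold and at least 6.76-fold lower.

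The smallest falls that passed were those of Trbv29 (-1.90), Trbv12-2 (-1.80), Trav9-4 (-1.56) and Trav15-2-dv6-2 (-1.41). Trbv14 was at 24.1 and 23.4 CPM in tumor and 41.1 and 26.4 CPM in spleen and did not pass (-0.72, adjusted p = 0.0526, edgeR). The constant genes of the alpha and beta chains fell too, Trac by 2.09, Trbc1 by 1.98 and Trbc2 by 2.23, as did Lck by 2.18, Lat by 2.57, Cd247 by 2.31 and Zap70 by 1.39, which act in receptor signalling. These were 7 of the 11 tested genes of the list of 15. The other 4, the gamma and delta constant genes, did not pass: the log2 fold change was 0.91 for Tcrg-C1, 0.83 for Trdc, 0.61 for Tcrg-C2 and 0.0091 for Tcrg-C4. The tumor T cells held macrophage and carcinoma RNA, given above, and its part in the falls was not tested. With T cells required to hold a UMI of Trac, Trbc1 or Trbc2 as well, 32 of 76 variable genes tested fell and 3 rose. Over all genes and both directions, 2925 of 11294 were then called.

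Trdv4, the delta gene that in mice pairs with Tcrg-V6 in gamma delta T cells known for making interleukin 17, had 147 UMIs in tumor T cells labelled KO and 2 labelled WT, against 11 and 5 in the spleen libraries. Its levels were 84.3 and 2.04 CPM in tumor and 0.526 and 0.286 CPM in spleen, so both tumor values lay above both spleen values, but the tumor value rested on 1 library. The fitted log2 fold change was 6.32 (SE 0.85, adjusted p = 0.00188, edgeR), and without the tumor library labelled KO it was 1.997 and not called (adjusted p = 0.264, edgeR). The gene was in 25 of 296 tumor T cells labelled KO (8.45%) and 2 of 154 labelled WT (1.30%), against 0.402% and 0.178% of tumor cells without Cd3. In spleen its shares, 0.187% and 0.103%, were at or under those of cells without Cd3, 0.437% and 0.113%.

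The 25 tumor cells shared other transcripts. Of them 15 held Tcrg-V6, 19 held Cd163l1, a scavenger receptor gene of gamma delta T cells, 13 held Il17a with 249 UMIs, 10 held Trdc, the delta constant gene, and 6 held a Trbv UMI. Of the 271 other T cells of that library 0 held Tcrg-V6, which allows a share of up to 1.11% with a UMI and sets no limit on the cells that express it, 2 held Cd163l1 and 19 held Il17a. Trdv5 was in 14 tumor T cells labelled KO and 0 of 154 labelled WT, and in 15 and 10 splenic T cells, and did not pass (adjusted p = 0.103, edgeR). Trgv2 was in 6.42% and 5.84% of tumor and 2.29% and 1.65% of splenic T cells and did not pass either (log2 0.75, adjusted p = 0.0934, edgeR). In tumor labelled KO, Il17a was also in 7 of the 14 Trdv5 cells and 6 of the 19 Trgv2 cells. Tcrg-V6 was in 0 and 2 of these and Cd163l1 in 1 and 4. Of the 25 Trdv4 cells 3 held Trgv2, so these sets overlap.

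The gamma and delta genes of spleen were found beside a beta chain to different extents, where 85.3% and 71.8% of all splenic T cells labelled KO and WT held a Trbv UMI. Trdv1 was in 87 and 62 splenic T cells labelled KO and WT, of which 80 and 56 also held a Trbv UMI and 4 and 5 held Trdc. Trdv2-2 was in 148 and 72, of which 116 and 50 held a Trbv UMI, and also in 1.78% and 0.632% of splenic cells without Cd3. Trgv2 was in 98 and 64, of which 67 and 53 held a Trbv UMI and 41 and 16 held Trdc. Trdv5 was in 15 and 10, of which 5 and 7 held a Trbv UMI and 10 and 6 held Trdc, and Trdv4 in 8 and 4, of which 3 and 2 held a Trbv UMI and 2 and 0 held Trdc. Trav15-2-dv6-2, which can join either an alpha or a delta chain, was in 49 and 29, of which 36 and 21 held a Trbv UMI and 31 and 12 held Trdc. The natural killer cell marker Ncr1 was in 24 and 8 of the Trdv2-2 cells. It was in 71 of 4131 and 32 of 3816 T cells without Trdv2-2. Of the Trdv4 cells 5 and 2 held it, of Trdv1 cells 2 and 0 and of Trgv2 cells 5 and 5. Of Trdv5 cells 0 and 2 held it, and of Trav15-2-dv6-2 cells 8 and 3.

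Between the genotype labels, most Trbv and Trav genes of spleen had a usage ratio whose interval included 1. Of 77 genes with at least 30 UMIs over both spleen libraries, the usage ratio, KO over WT, ran from 0 to 2.10, and 50 of the 77 lay between 0.8 and 1.25. At 1.5-fold, 4 were higher and 4 lower (5.19% each of those compared), and the interval of the ratio excluded 1 for 2 genes, past 1.5-fold for 1. Trbv5 led 229 of 3514 cells labelled KO (6.52%) and 118 of 2681 labelled WT (4.40%), a ratio of 1.48 (1.18 to 1.87). Trav1, the alpha gene of mucosal-associated invariant T cells, led 38 of 2865 cells labelled KO (1.33%) and 52 of 2133 labelled WT (2.44%), a ratio of 0.544 (0.348 to 0.843). At 1000 UMIs per cell the upper bound for Trav1 was 1.04. With 77 intervals at 95%, some exclude 1 by counting error alone, and with 1 library per label the spread between pools is unknown.

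The 5 highest ratios were those of Trbv26 (2.10; 11 and 4 cells), Trbv30 (1.91; 25 and 10 cells), Trav16n and Trav15-2-dv6-2 (both 1.74), with Trav14n-3 and Trav9d-1 tied at 1.49 over 6 and 3 and over 4 and 2 cells. The lowest were Trav9n-1 (0 cells labelled KO), Trbv23 (0.305; 2 and 5 cells), Trav1, Trav10n (0.625) and Trbv12-1 (0.668; 7 and 8 cells). Apart from Trav1, the interval of each of these includes 1.

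CPM gave another picture than usage. Of 81 variable genes with at least 30 UMIs in splenic T cells, 31 were at least 1.5-fold higher and 1 was lower in the library labelled KO, where 9.64% of all genes were higher and 9.95% lower. The median log2 ratio was 0.52 over the variable genes and 0.20 over all genes. Among T cells with under 5 UMIs of S100a8 and S100a9, 8 of 81 were higher and 3 lower, where 3.63% of all genes were higher and 4.73% lower, with a median of 0.05 over the variable genes and -0.0043 over all genes. Neutrophil RNA, at 29309 and 96495 CPM in all splenic T cells labelled KO and WT, was higher in the library with the lower variable gene CPM. The CPM difference was smaller without the cells that held 5 or more UMIs of S100a8 and S100a9, and its cause was not tested.

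In tumor 11 genes had at least 30 UMIs, of which 6 were at least 1.5-fold higher and 1 lower by CPM in the library labelled KO (7.54% and 10.8% of all genes). Trbv17 had 88 UMIs in the library labelled KO and 1 in that labelled WT, but its 88 UMIs came from few cells: it led 7 cells, with up to 21 UMIs in 1 of them, against 1 cell labelled WT. By usage, 3 of 9 Trbv genes were higher and 2 lower (33.3% and 22.2% of those compared), from Trbv31 at 5.11 (0.743 to 220; 11 and 1 cells) and Trbv13-3 at 3.72 (8 and 1 cells) to Trbv1 at 0.581 and Trbv29 at 0.398 (6 and 7 cells), and every interval included 1. For these 9 genes no difference in tumor usage was detectable at 127 and 59 assigned cells. Genes with fewer UMIs were not compared. Among them Trbv5, with 5 and 13 UMIs, led 3 of 127 cells labelled KO (2.36%; 0.490% to 6.75%) and 7 of 59 labelled WT (11.9%; 4.91% to 22.9%).

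**Figure D5:**
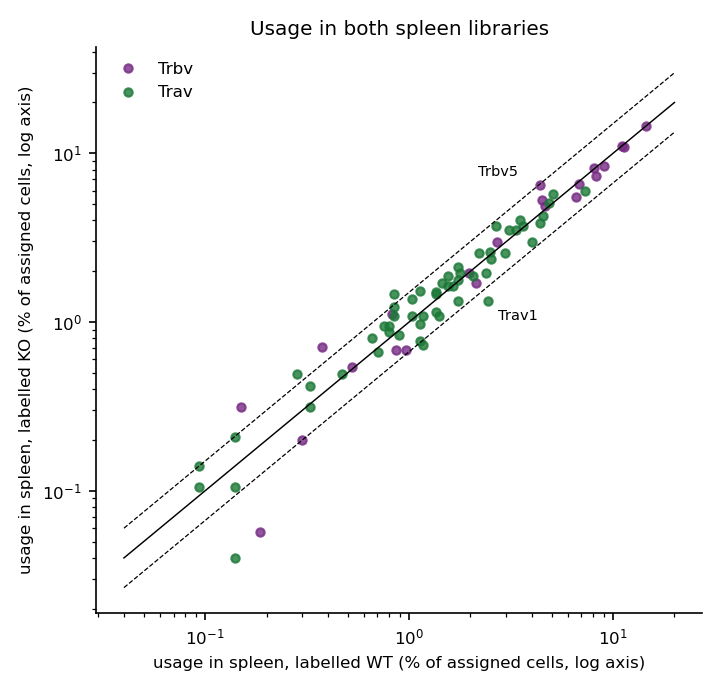
Usage of each Trbv and Trav gene with at least 30 UMIs in the spleen library labelled KO (vertical, percent of assigned cells, log axis) against that labelled WT (horizontal, log axis), with lines at equality and at 1.5-fold; Trav9n-1, with 0 cells labelled KO, is drawn at the lower edge. Trbv5 (6.52% and 4.40%) lies above the line of equality and Trav1 (1.33% and 2.44%) below it.

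BALB/c mice are known to carry mammary tumor proviruses whose superantigens, shown on the MHC class II molecule I-E, delete T cells with certain beta chains, here Trbv26, Trbv12-1, Trbv12-2, Trbv16 and Trbv15. Together these 5 genes led 2.36% of assigned tumor T cells labelled KO (3 of 127; 0.490% to 6.75%) and 6.78% labelled WT (4 of 59; 1.88% to 16.5%). In spleen they led 2.85% labelled KO (100 of 3514; 2.32% to 3.45%) and 2.76% labelled WT (74 of 2681; 2.17% to 3.45%). Trbv16 led 1.11% and 0.821% of splenic cells, Trbv15 0.683% and 0.970%, Trbv12-2 0.541% and 0.522%, Trbv26 0.313% and 0.149%, and Trbv12-1 0.199% and 0.298%. Genes outside the list were as rare: Trbv24 led 0.683% and 0.858%, Trbv30 0.711% and 0.373%, and Trbv23 0.0569% and 0.187%.

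The share was low in each lineage of spleen. The list led 2.95% and 3.33% of CD8 cells labelled KO and WT and 2.86% and 2.07% of CD4 cells, and 3.67% and 2.93% of cells with a UMI of Foxp3, the regulatory T cell factor, and these intervals overlapped. By UMIs the list took 5.21% and 4.26% of splenic Trbv UMIs, of which Trbv12-2 alone gave 523 of 1317 and 205 of 628, the gene that was mostly held beside a 3′ leading gene. H2-Eb1, the beta chain of I-E, was at 3980 and 3309 CPM in splenic B cells. The alpha chain gene of I-E was not among the genes listed, as H2-Ea or H2-Ea-ps, and so was not measured. No library came from a strain named as lacking these proviruses, and the background strain of the KO mice is not given.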

How the data were processed

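Per the file headers the deposited matrices hold whole-number UMI counts per gene and barcode, written by Cell Ranger 6.1.0. Version 6.0.0 of that tool, with mm10, stands in the submitters' processing notes. Kits for 5′ and for 3′ v3 libraries both appear in the labels' protocols.

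The cell filter required 300 genes and 500 UMIs or more, with mitochondrial UMIs up to 10%. Doublets were scored per library by the Scrublet method in scanpy 1.11.5, and the highest scores removed at 0.8% per 1000 barcodes. Members and lists were chosen with earlier results of these data known. UMI sums of lineages or T cells were tested with edgeR 4.0.16 in R 4.3.3 (TMM scaling, low-count filter, quasi-likelihood test), with DESeq2 1.42.0 as an alternative; the edgeR step was tested on simulated data. KO over WT ratios have exact conditional intervals, shares Clopper-Pearson intervals (scipy 1.17.1) and evenness intervals from the large-sample variance of the index, and no test, with 1 library per label. Gene IDs matched the GENCODE annotation of GRCm38 for 170 of 170 members.

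The text names Trbv genes at 1% or more of Trbv UMIs in a spleen library and the superantigen list, the 12 Trav genes with most spleen UMIs, Trav1 and the Trav11 copies, Trgv and Trdv genes with 20 or more UMIs, and the 5 highest and 5 lowest among genes that passed a test or, with 30 or more UMIs, among ratios. Others are named as rest of a count or beside a result, after their values were seen. Alternatives changed the T cell rule, cell and doublet filters, scaling, tool, block, libraries, depth and assignment. Labels carry no replicate numbers.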

Additional observations from a re-analysis of the deposited data

Results flagged for a closer look

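Marrow, which took no part in the comparisons, held some Trbv signal. Of marrow cells with a Cd3 UMI, 88.2% in the library labelled KO and 86.7% in that labelled WT held 5 or more UMIs of S100a8 and S100a9. Of the rest, 96 and 56 cells, 34.4% (24.98% to 44.77%) labelled KO and 39.3% (26.5% to 53.2%) labelled WT held a Trbv UMI, against 2.29% and 3.08% of marrow cells without Cd3.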

How the results depend on the processing

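In CD8 against CD4 cells of spleen 6 variable genes were higher and 15 lower. Higher were 2 with a Trac or Trbc UMI required, 3 with doublets kept, 1 without the library block and 0 with DESeq2. Lower were 5 without the block, 4 with DESeq2 and 7 with tumor cells added. Over all genes, 767 of 10582 were called with a Trac or Trbc UMI and 1006 of 11312 with doublets kept. Without the block and with DESeq2 it was 470 of 10900 each, and with tumor cells added 641 of 10326. At an unadjusted p under 0.05, 7 were higher by DESeq2 and 12 by edgeR. Leaving out each library in turn from the fit with tumor cells gave 0 to 6 higher and 0 to 13 lower, with 0 without either spleen library. There the log2 fold change of Trbv19 ran from -0.386 to 0.540, with 0.516 without the spleen library labelled KO and 0.540 without that labelled WT, neither called. In tumor against spleen (1 higher, 54 lower), 2 were higher with 2 or more Cd3 UMIs or no filter on low counts, and 3 with a Trac or Trbc UMI or with little neutrophil RNA; 30 were lower with 2 or more Cd3 UMIs and 32 with a Trac or Trbc UMI. Leaving out each library, with no genotype block, gave 0 to 2 higher (0 without tumor labelled KO, 2 without spleen labelled KO) and 37 to 54 lower. Of the 55 variable genes called in the main fit, 53 were called with doublets kept and 44 with DESeq2. Over all genes, 4810 of 12650 were called in the main fit, 2686 of 12098 with 2 or more Cd3 UMIs and 2925 of 11294 with a Trac or Trbc UMI. It was 5001 of 13000 with doublets kept and 4723 of 12650 with DESeq2. With no filter on low counts 6016 of 19511 were called, and with little neutrophil RNA 6401 of 11979.

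The Trbv shares of tumor labelled KO, tumor labelled WT, spleen labelled KO and spleen labelled WT were 58.3%, 59.1%, 89.8% and 80.2% with 2 or more Cd3 UMIs, 60.5%, 69.6%, 91.5% and 88.6% with a Trac or Trbc UMI, and 29.6%, 25.3%, 61.9% and 51.7% at 1000 UMIs. With little neutrophil RNA those of spleen were 88.7% and 85.2%. Past 1.5-fold in usage between the labels lay 0 tumor genes at 1000 UMIs, against 5, and 14 spleen genes with a Trac or Trbc UMI and also without cells holding several Trbv genes, against 8. Trbv evenness in spleen labelled KO and WT was 11.75 and 11.49 by UMIs and 11.72 and 11.25 with a leading gene of 2 or more UMIs. The superantigen list was 3.68% of cells labelled KO at 1000 UMIs, 5.21% and 4.26% by UMIs, and 2.08% of cells labelled WT with a leading gene of 2 or more UMIs. The Trbv5 ratio was 2.17 with that rule. The cause of these changes was not tested.

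Single pools, counting end, near-identical Trav copies and 59 to 127 assigned tumor cells limit what can be read. CD8 and CD4 cells were paired by library in the fit with the library block, which called 21 variable genes, against 6 without it. Tissues were blocked by genotype label, with 55 called with and without the block, of which 50 were the same genes. No paired analysis was possible between the genotype labels because the labels give no replicate numbers and each group has 1 library.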
